A study of Mus musculus with 6 samples.

Results

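The T cell receptor complex and its proximal signalling proteins were followed through 10 genes in sorted mouse CD4+CD25+ T cells. These are the constant region genes of the receptor's alpha chain (Trac) and beta chain (Trbc1, Trbc2), the CD3 chains (Cd3e, Cd3d, Cd3g), the zeta chain (Cd247), the kinases Lck and Zap70 and the membrane adaptor Lat. They were chosen by name, and all 10 were found among the 38924 genes of the count tables and passed the filter on low counts, as did 13694 genes in all. The compared groups were 3 ILT3+ and 3 ILT3- samples of CD4+CD25+ T cells from spleen and lymph nodes of untreated WT mice. Donors were syngeneic animals of both sexes, 10 to 16 weeks old, and cells were enriched on magnetic columns before sorting by flow cytometry. ILT3 is an inhibitory immunoglobulin-like receptor of the cell surface. Separate animals or pools behind the samples are not stated, and a p-value here therefore reflects only how these 6 samples vary, in part perhaps technically.

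In conventional T cells the alpha and beta chains bind peptide on MHC molecules but carry no signalling motif of their own. They reach the surface with the CD3 gamma, delta, epsilon and zeta chains, whose cytoplasmic tyrosine motifs are phosphorylated by Lck. ZAP-70 docks on the phosphorylated motifs and in turn phosphorylates LAT, a scaffold that gathers adaptors and phospholipase C. Regulatory T cells, which make up much of the CD4+CD25+ gate in untreated mice, need this receptor for their suppressive programme.

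All 10 genes had a negative fitted log2 fold change in ILT3+ relative to ILT3- cells, between -0.73 and -0.18, and the beta chain constant genes stood at the lower end. Without ILT3- sample 3, 8 of the 10 were negative. Trbc1 averaged 241 ± 33.3 CPM in ILT3+ cells, against 401 ± 45.8 CPM in ILT3- cells, and Trbc2 624 ± 143 CPM in ILT3+ cells, against 970 ± 172 CPM in ILT3- cells (CPM are read counts relative to the TMM-scaled library size, given as mean ± SD, n = 3 each). With group alone in edgeR's quasi-likelihood test, 0 of the 10 genes passed a Benjamini-Hochberg adjusted p of 0.05, where 2.31% of all tested genes passed. At an unadjusted p of 0.05 there were 2 (Trbc1 and Trbc2, 13.8% of all tested genes), and DESeq2 called 1 (Trbc1, 6.97% of all genes with an adjusted p). With the sample number as a block, both Trbc1 (adjusted p = 0.0121) and Trbc2 (adjusted p = 0.0123) were lower in ILT3+ cells, where 6.81% of all tested genes passed and 2.62% were lower. The labels state no pairing of same-number samples, which was inferred from these same counts, and the block was an alternative to the main fit. The median log2 fold change was -0.34 over the 10 genes and -0.02 over all tested genes, of which 52.0% were negative.

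**Figure D1:**
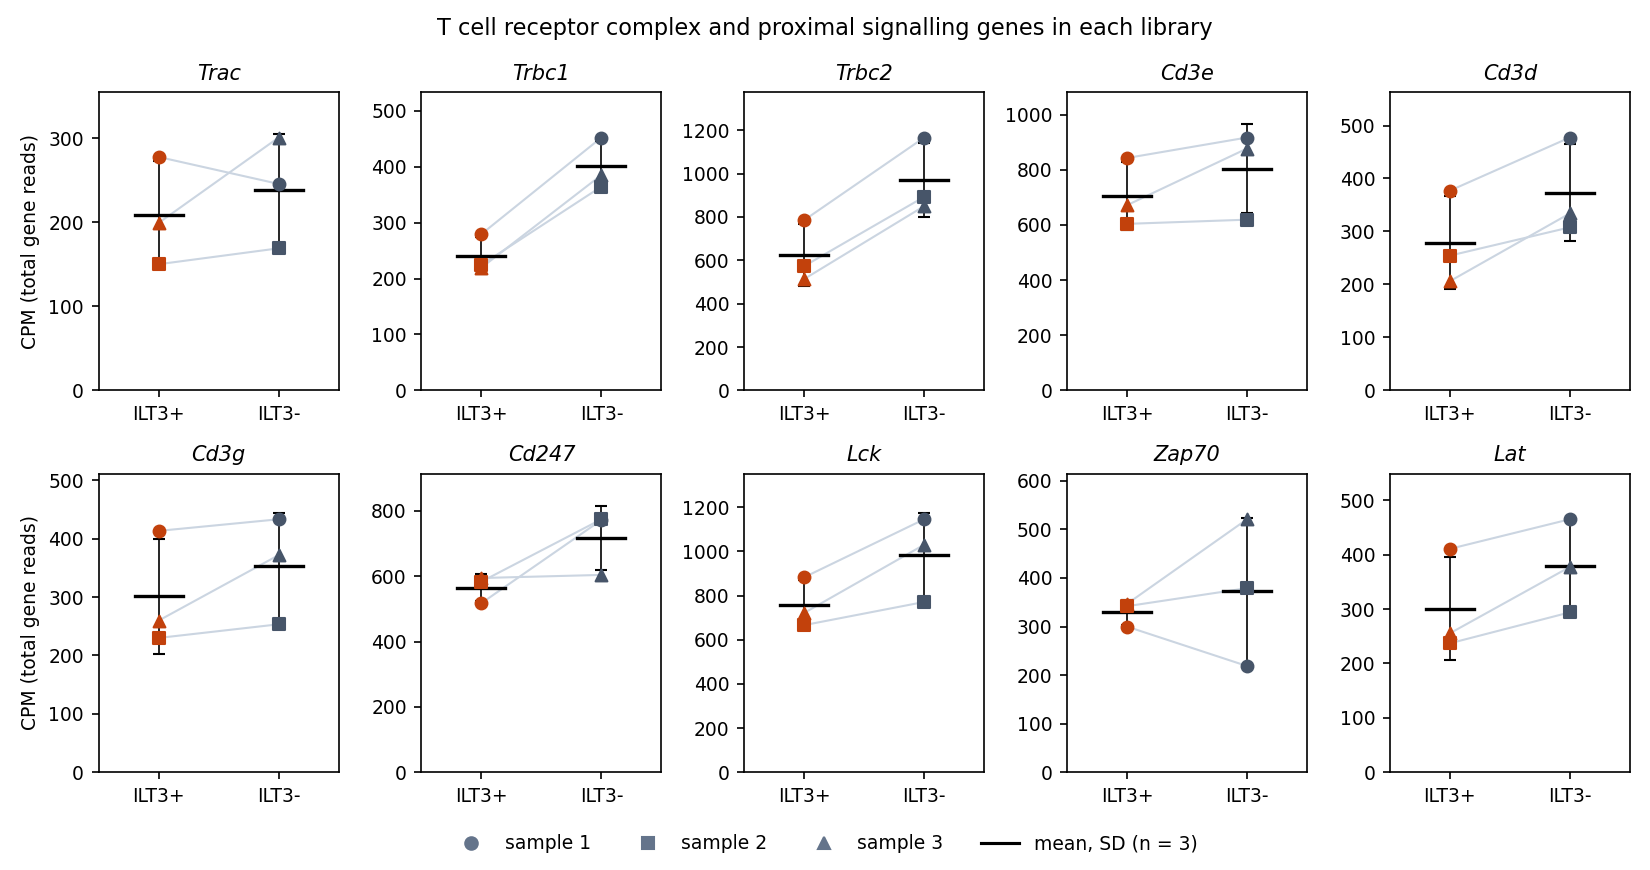
CPM (TMM-scaled total gene reads, linear axis from 0) of the 10 genes in the 3 ILT3+ (left) and 3 ILT3- (right) samples, with grey lines joining samples of the same number and black bars for mean and SD. The groups are apart for Trbc1, Trbc2 and Cd247 and overlap for the other 7 genes. Of all tested genes 8.76% were apart in the lower direction.

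Trbc1 and Trbc2 are neighbouring, alternative constant regions of the beta chain, and each rearranged beta chain uses either. They are shown here because the counts cannot fully tell them apart. On GRCm38, the build in the submitters' processing notes, the Trbc1 row spans chr6:41538218-41539347 and the Trbc2 row chr6:41546730-41548181, both on the plus strand. The coding parts of transcripts Trbc1-202 (chr6:41538218-41539665) and Trbc2-201 (chr6:41546730-41548181) of GENCODE M21 on that build, 5′ to 3′ and with the stop codon, are given with capitals at the bases that differ. Shown are the last 300 bases, positions 222 to 521, which hold all differences.
Trbc1: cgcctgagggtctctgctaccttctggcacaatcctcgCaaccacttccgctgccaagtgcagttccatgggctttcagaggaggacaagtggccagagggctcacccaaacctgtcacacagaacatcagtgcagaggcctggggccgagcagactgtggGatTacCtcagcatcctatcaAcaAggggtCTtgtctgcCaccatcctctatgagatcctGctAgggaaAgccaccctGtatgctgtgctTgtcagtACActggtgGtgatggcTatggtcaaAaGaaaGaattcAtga
Trbc2: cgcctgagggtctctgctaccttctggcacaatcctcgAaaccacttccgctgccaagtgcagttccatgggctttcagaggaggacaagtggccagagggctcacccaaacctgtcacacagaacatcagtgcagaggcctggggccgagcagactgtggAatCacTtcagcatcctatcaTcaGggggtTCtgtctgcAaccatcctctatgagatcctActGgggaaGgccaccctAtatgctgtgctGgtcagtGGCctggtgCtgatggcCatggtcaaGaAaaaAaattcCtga
Of 521 aligned bases 23 differ, so that the sequences are 95.6% identical. Only 1 difference, at position 260 counted from the first base, lies in the exon 1 of 375 bases, and the other 22 lie in the 146 bases after it. The first 259 bases are the same. The Trbc1 row of the count tables ends before the last coding exon. Unique reads were 44.9% to 48.7% of total reads of Trbc1 and 46.1% to 48.3% of those of Trbc2 over the 6 libraries, whereas at least 99.4% were unique for each of Trac, Cd3e, Cd3d, Cd3g, Lck, Zap70 and Lat. The split between both beta genes is therefore uncertain. How reads that match both genes were counted is not stated, so their sum may be affected as well.

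Trbc1 had 279, 224 and 219 CPM in ILT3+ samples 1, 2 and 3, against 452, 364 and 385 CPM in ILT3- samples 1, 2 and 3. Trbc2 had 786, 574 and 514 CPM in the ILT3+ samples, against 1167, 893 and 850 CPM in the ILT3- samples. In both genes every ILT3+ sample lay below every ILT3- sample, as in 8.76% of all tested genes, and in both the samples numbered 1 were the highest of their group. The fitted log2 fold change was -0.73 for Trbc1 (SE 0.18, adjusted p = 0.103) and -0.64 for Trbc2 (SE 0.23, adjusted p = 0.261). Within same-number pairs, the log2 ratio of ILT3+ to ILT3- was -0.69, -0.70 and -0.81 for Trbc1 in pairs 1, 2 and 3. For Trbc2 it was -0.57, -0.64 and -0.73. The SD of these ratios over the pairs was 0.07 for Trbc1 and 0.08 for Trbc2, while the SD of log2 CPM among samples of a group was 0.16 to 0.32. On exon reads alone the within-pair values were -0.68, -0.69 and -0.81 for Trbc1 and -0.55, -0.63 and -0.74 for Trbc2. Exon reads called 0 of the 10 genes with group alone (2.05% of all tested) and the same 2 genes with the block (adjusted p = 0.0103 for each, 6.07% of all tested). With the block but without both samples numbered 2, adjusted p was 0.118 for Trbc1 and 0.128 for Trbc2, and without both samples numbered 3 it was 0.121 for Trbc1 and 0.113 for Trbc2.

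The share of Trbc1 among Trbc1 plus Trbc2 reads was 26.2%, 28.1% and 29.9% in the ILT3+ samples, against 27.9%, 29.0% and 31.2% in the ILT3- samples. The groups overlapped (28.1 ± 1.84% in ILT3+ and 29.4 ± 1.65% in ILT3- cells, two-sided exact permutation p = 0.5, where 3 against 3 samples cannot go below 0.1). On unique reads alone the share was 26.4%, 28.6% and 29.1% in the ILT3+ samples, against 27.8%, 28.5% and 30.6% in the ILT3- samples. Both genes together held 0.105%, 0.0836% and 0.0769% of all reads in the ILT3+ samples, against 0.144%, 0.127% and 0.125% in the ILT3- samples. In bulk RNA, fewer cells of a type and less RNA per cell cannot be told apart, here and in all values that follow.

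Trac, on chr14:54220521-54223097 of the plus strand, encodes the constant region of the partner chain. It had 278, 150 and 199 CPM in ILT3+ samples 1, 2 and 3, against 246, 169 and 301 CPM in ILT3- samples 1, 2 and 3. The groups overlapped, with sample 2 the lowest of each, and the fitted log2 fold change was -0.19 (SE 0.29, adjusted p = 0.857). Within pairs the log2 ratio was 0.18, -0.17 and -0.59, so that the pairs differed in sign. The fitted value turned to 0.01 without ILT3+ sample 2 and to 0.015 without ILT3- sample 3.

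Set against each other, the beta and alpha chains did not keep the same proportion in each sample. Trbc1 plus Trbc2 reads per Trac read were 3.83, 5.31 and 3.68 in the ILT3+ samples, against 6.59, 7.44 and 4.11 in the ILT3- samples. The ratio was lower in ILT3+ within all 3 pairs, although the groups overlapped (4.28 ± 0.903 in ILT3+ and 6.04 ± 1.73 in ILT3- cells, exact permutation p = 0.2). Per Cd3e read the beta constant reads were 1.26, 1.32 and 1.09 in the ILT3+ samples, against 1.77, 2.03 and 1.41 in the ILT3- samples. Here the groups did not overlap (exact permutation p = 0.1, the smallest this design allows), also with exon or unique reads. Trac reads per Cd3e read were 0.292 ± 0.0408 in ILT3+ and 0.295 ± 0.0420 in ILT3- cells (SD, n = 3 each, exact permutation p = 1.0). These ratios were chosen after the values were seen.

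The variable and joining segments of both loci were summed in the same way, also after the values were seen. The 23 Trbv rows summed to 417, 327 and 286 CPM in the ILT3+ samples, against 668, 551 and 550 CPM in the ILT3- samples. Trbj1 segments summed to 12.8, 12.7 and 14.1 CPM in ILT3+, against 24.9, 22.8 and 22.6 CPM in ILT3- samples. Trbj2 segments summed to 29.1, 22.6 and 19.5 CPM in ILT3+, against 47.5, 33.8 and 35.8 CPM in ILT3- samples. In each of these beta sums all ILT3+ samples lay below all ILT3- samples, with ILT3+ means of 0.563 to 0.609 times the ILT3- means. Among single genes, 8.76% of all tested lay apart in that direction. The 109 Trav rows summed to 309, 160 and 220 CPM in ILT3+, against 312, 184 and 347 CPM in ILT3- samples, and the 59 Traj rows to 31.4, 16.4 and 24.9 CPM in ILT3+, against 27.0, 21.4 and 31.8 CPM in ILT3- samples. Both alpha sums overlapped between the groups. How reads that span a joined V, J and C segment were counted is not stated, so these sums may not be independent of the constant genes or of each other.

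**Figure D2:**
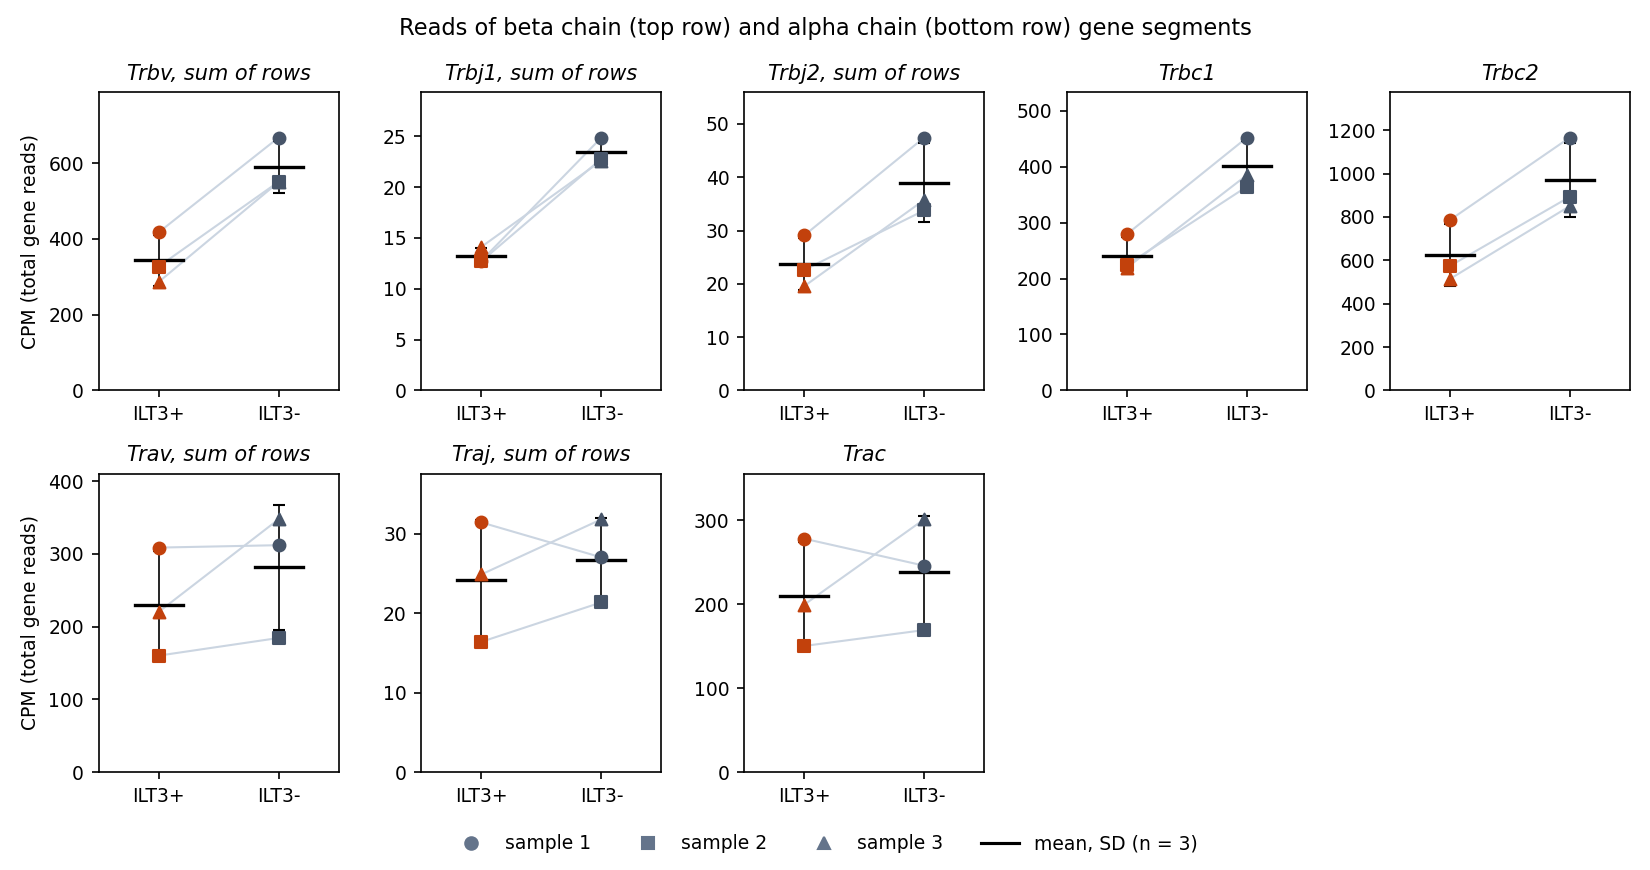
CPM (linear axes from 0) of beta chain segments (top row) and alpha chain segments (bottom row) in the 3 ILT3+ (left) and 3 ILT3- (right) samples, with grey lines for samples of the same number and black bars for mean and SD. All 5 beta panels have the ILT3+ samples below the ILT3- samples, for example 286 to 417 against 550 to 668 CPM for Trbv, while the 3 alpha panels overlap.

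The CD3 chains lie in a cluster on chromosome 9, with Cd3g and Cd3e on the minus strand and Cd3d on the plus strand between them. Cd3e, at chr9:44998743-45009590, had 843, 604 and 671 CPM in the ILT3+ samples, against 917, 619 and 877 CPM in the ILT3- samples. Cd3d, at chr9:44981793-44987052, had 377, 254 and 206 CPM in the ILT3+ samples, against 477, 308 and 334 CPM in the ILT3- samples. Cd3g, at chr9:44969572-44980431, had 413, 230 and 260 CPM in the ILT3+ samples, against 433, 253 and 372 CPM in the ILT3- samples. All 3 genes overlapped between the groups and were lower in ILT3+ within each of the 3 pairs, which held for 8 of the 10 genes and for 22.6% of all tested genes. The within-pair log2 ratios ran from -0.39 to -0.04 for Cd3e, from -0.70 to -0.27 for Cd3d and from -0.52 to -0.07 for Cd3g. On exon reads 6 of the 10 genes were lower within all 3 pairs (20% of all tested), as Cd3e was at 0.0017 in pair 2 and Cd247 above 0 in pair 3. Fitted log2 fold changes were -0.19 (SE 0.22, adjusted p = 0.808) for Cd3e, -0.42 (SE 0.28, adjusted p = 0.597) for Cd3d and -0.23 (SE 0.29, adjusted p = 0.820) for Cd3g.

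Cd247 encodes the zeta chain, which carries more tyrosine motifs than any other chain of the complex. It had 518, 584 and 595 CPM in the ILT3+ samples, against 772, 774 and 604 CPM in the ILT3- samples. The groups did not overlap, which among the 10 genes held, in the lower direction, for Cd247, Trbc1 and Trbc2 and for 8.76% of all tested genes (20.2% in either direction), but the highest ILT3+ sample, at 595 CPM, was close to the lowest ILT3- sample, at 604 CPM. The fitted log2 fold change was -0.34 (SE 0.18, adjusted p = 0.476), and within pairs the log2 ratio was -0.58, -0.41 and -0.02. On exon reads the groups overlapped, with ratios of -0.42, -0.32 and 0.08. Cd247 is also the gene of the 10 with the most intron reads, 42.7%, 48.4% and 45.1% of its reads in the ILT3+ samples against 48.5%, 51.4% and 48.9% in the ILT3- samples. That share did not overlap between the groups (exact permutation p = 0.1, adjusted p = 0.667 over the 10 genes). Its gene model, chr1:165788681-165877276 on the plus strand, overlaps that of Pou2f1 on the minus strand, which had 563 to 970 reads per library, and Gm16565 with 11 to 72 reads. Whether the counting used strand is not given in the sources used here, so some reads of these genes may be shared.

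Intron shares of the other 9 genes overlapped between the groups. The largest of the other differences was in Lat, with 8.87 ± 0.927% in ILT3+ and 11.8 ± 2.09% in ILT3- cells (SD, n = 3 each, exact permutation p = 0.2). Shares were lowest in Trac (1.98 ± 0.335% in ILT3+ and 2.14 ± 0.793% in ILT3- cells) and Trbc1 (1.86 ± 0.407% in ILT3+ and 2.34 ± 0.755% in ILT3- cells). Over whole libraries introns held 24.0% to 25.5% of reads in ILT3+ and 25.0% to 28.3% in ILT3- samples.

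Lck, the Src family kinase that phosphorylates the CD3 and zeta motifs, had 883, 666 and 722 CPM in the ILT3+ samples, against 1146, 771 and 1031 CPM in the ILT3- samples (chr4:129548344-129573641, minus strand). It overlapped between the groups but was lower in ILT3+ in each pair, with log2 ratios of -0.38, -0.21 and -0.51. The fitted log2 fold change was -0.38 (SE 0.21, adjusted p = 0.525, and 0.0877 with the block). Zap70, the kinase that binds the phosphorylated motifs, had 300, 342 and 347 CPM in the ILT3+ samples, against 219, 379 and 521 CPM in the ILT3- samples (chr1:36761861-36782816, plus strand). The ILT3- samples enclosed the ILT3+ ones, and the log2 ratio within pairs was 0.46, -0.15 and -0.59. Its fitted log2 fold change of -0.18 (SE 0.30, adjusted p = 0.874) turned to 0.14 without ILT3- sample 3. Lat, the scaffold that ZAP-70 phosphorylates, had 411, 237 and 255 CPM in the ILT3+ samples, against 465, 294 and 378 CPM in the ILT3- samples (chr7:126363832-126369543, minus strand). Its groups overlapped, it was lower in ILT3+ in each pair, and the fitted log2 fold change was -0.33 (SE 0.27, adjusted p = 0.701).

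**Figure D3:**
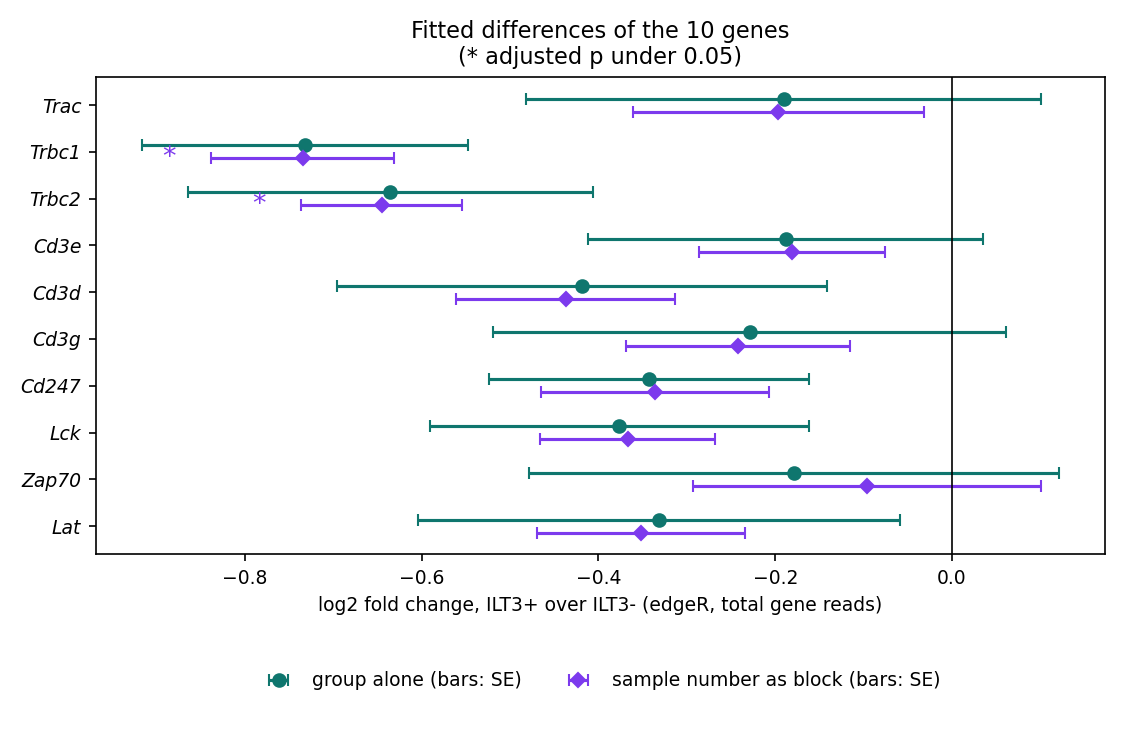
Fitted log2 fold change of ILT3+ over ILT3- for the 10 genes with group alone (circles) and with the sample number as a block (diamonds), bars showing the SE, a star marking an adjusted p under 0.05. All points lie below 0, and stars stand only at the blocked values of Trbc1 (-0.73) and Trbc2 (-0.65).

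In most of the 10 genes the samples numbered 1 were the highest of their group. Of the ILT3+ samples, number 1 was the highest in 8 of the 10 genes, and of the ILT3- samples number 1 was the highest in 7. ILT3- sample 2 was the lowest of its group in 7, while the lowest ILT3+ sample was number 2 in 5, number 3 in 3 and number 1 in 2. Shares of all tested genes with these orders were not counted. Zap70 went the other way, with number 1 lowest in both groups, and its ILT3- samples spanned 2.38-fold from lowest to highest against 1.16-fold in its ILT3+ samples. Cd247 was also lowest in ILT3+ sample 1. Ranges were narrow in both groups for Cd247 (1.15-fold in ILT3+ and 1.28-fold in ILT3- samples) and Trbc1 (1.27-fold in ILT3+ and 1.24-fold in ILT3- samples). Together the 10 genes held 0.504%, 0.405% and 0.418% of all reads in the ILT3+ samples, against 0.561%, 0.486% and 0.570% in the ILT3- samples, with overlap between the groups. Each gene rested on 1820 to 14186 total reads per library.

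On exon reads per kilobase of exon and CPM scaling, which allows levels to be set across genes, Trbc2 was the most abundant in both groups with 1135 ± 252 in ILT3+ and 1755 ± 281 in ILT3- cells (SD, n = 3 each). It was separate from the next gene in either group. Only 46.1% to 48.3% of Trbc2 reads and 44.9% to 48.7% of Trbc1 reads were unique, so the places of both genes are uncertain. Trac (496 ± 154 in ILT3+ and 565 ± 155 in ILT3- cells), Trbc1 (462 ± 64.8 in ILT3+ and 764 ± 89.3 in ILT3- cells) and Cd3e (441 ± 95.8 in ILT3+ and 494 ± 113 in ILT3- cells) followed. Trac came before Trbc1 in ILT3+ and after it in ILT3- cells, with overlap in both. Cd3g, Lck, Lat and Cd3d formed a group from 204 to 272 in ILT3+ and from 270 to 318 in ILT3- cells, in which neighbours overlapped. Zap70 was at 139 ± 11.1 in ILT3+ and 157 ± 65.0 in ILT3- cells, apart from the gene above it in ILT3+ only. Cd247 was the least abundant of the 10, at 57.3 ± 3.02 in ILT3+ and 67.2 ± 8.61 in ILT3- cells, and apart from Zap70 in both groups. Exon models of the constant genes are short (413 bases for Trac, 512 for Trbc1 and 521 for Trbc2, against 5374 for Cd247), so reads in parts outside them were not counted as exon reads there.

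**Figure D4:**
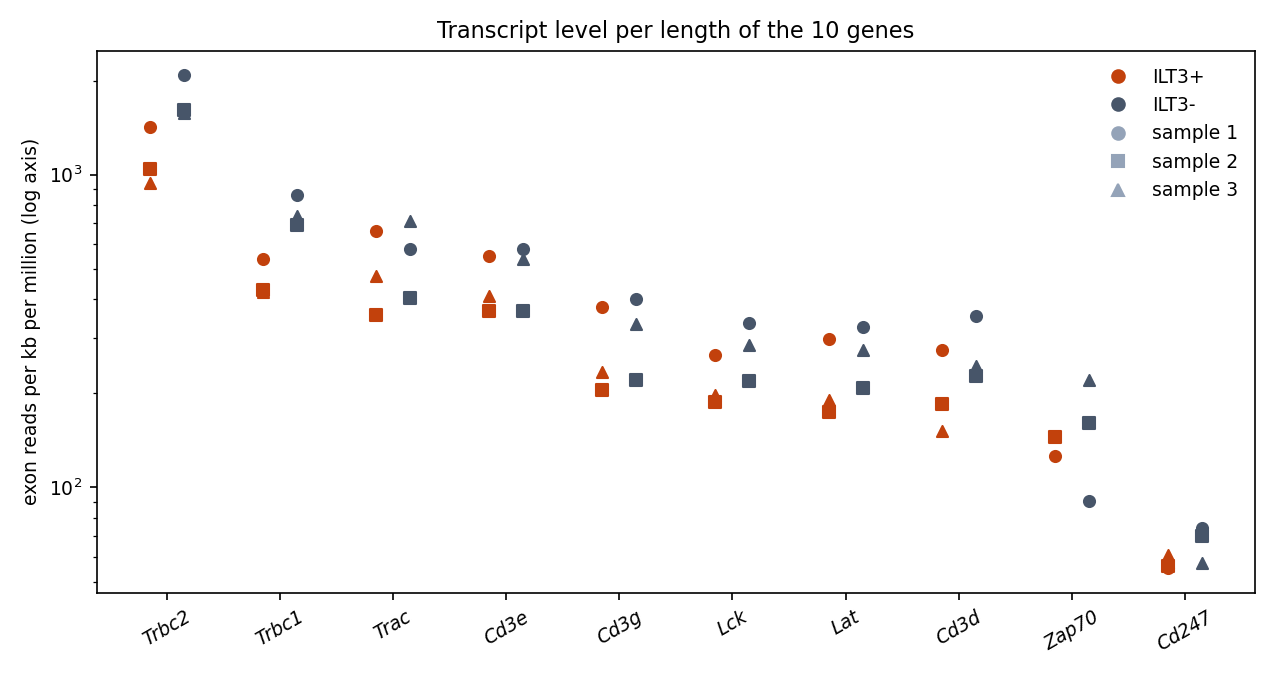
Exon reads per kilobase, CPM-scaled (log axis) of the 10 genes, ordered by the mean over all samples, in the 3 ILT3+ (orange) and 3 ILT3- (grey) samples, marker shapes giving the sample number. Trbc2 is highest and Cd247 lowest in both groups, from 943 to 1420 and from 55.2 to 60.8 in the ILT3+ samples.

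Profiles over the 6 samples were compared by the root mean square distance between mean-centred log2 CPM values among 8625 genes of at least 10 CPM on average. Closest to Cd3e were Eif2a (0.0434), Pfn1 (0.0527) and Tkt (0.0659). The nearest of the other 9 receptor and kinase genes was Lck (0.0997, rank 18), and the farthest was Zap70 (0.493, rank 5601). Closest to Trac were Zfp280c (0.0485), Pus7 (0.0952) and Tma16 (0.0958), and closest to Lck were Cnn2 (0.0647), Phtf2 (0.0873) and Wdr46 (0.0879). These distances are descriptions only, as all genes were measured in the same 6 libraries.

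The other steps of receptor signalling were followed in 66 genes, all of which were tested. With group alone 1 was higher in ILT3+ cells and 1 lower, against 1.96% higher and 0.343% lower of all tested genes. With the block 2 were higher and 13 lower, against 4.18% higher and 2.62% lower of all tested genes, and DESeq2 called 2 higher and 7 lower, against 5.11% and 1.86%. The fitted log2 fold change was negative in 45 of the 66 and had a median of -0.29, against 52.0% negative and a median of -0.02 over all tested genes.

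Prkcq, protein kinase C theta, which links the receptor to NF-kappa B, was the gene that fell. It had 184, 129 and 128 CPM in the ILT3+ samples, against 522, 340 and 386 CPM in the ILT3- samples, with no overlap. Its fitted log2 value was -1.50 (SE 0.24, adjusted p = 0.0231). Adjusted p for Prkcq was between 0.0729 and 0.121 without ILT3+ sample 2, ILT3+ sample 3, ILT3- sample 2 or ILT3- sample 3. Tec, a kinase that acts on phospholipase C, rose. It had 63.0, 66.2 and 82.3 CPM in the ILT3+ samples, against 16.2, 17.8 and 14.6 CPM in the ILT3- samples. Its fitted log2 value was 2.12 (SE 0.22, adjusted p = 0.00663). The call of Tec was lost on exon reads (adjusted p = 0.0555), and leaving ILT3- sample 3 out gave an adjusted p of 0.0519.

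Among the other kinases, Syk, the relative of Zap70 found in B and myeloid cells, had 22.0, 3.94 and 3.35 CPM in the ILT3+ samples, against 2.40, 0.864 and 2.40 CPM in the ILT3- samples. It was high in ILT3+ sample 1 only, and its log2 value was 2.37 with all samples (adjusted p = 0.276) and 0.95 without that sample (adjusted p = 0.630). Of the 3 coreceptor genes 0 were called with either fit and 0 had an unadjusted p under 0.05. Cd4 averaged 656 ± 201 CPM in ILT3+ cells, against 490 ± 98.0 CPM in ILT3- cells (adjusted p = 0.574), and the CD8 chains were low in both groups, at 4.67 ± 1.68 CPM in ILT3+ cells, against 3.94 ± 3.55 CPM in ILT3- cells for Cd8a and 11.7 ± 2.33 CPM in ILT3+ cells, against 15.9 ± 6.40 CPM in ILT3- cells for Cd8b1.

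Of 19 phosphatases and negative adaptors 0 were called with group alone and 5 were lower with the block, where 0.343% and 2.62% of all tested genes were lower. Cd5, a surface receptor that dampens receptor signalling, averaged 545 ± 35.1 CPM in ILT3+ cells, against 1034 ± 287 CPM in ILT3- cells (log2 fold change -0.92, adjusted p = 0.0981, and 0.0146 with the block). Ptpn6, the phosphatase SHP-1, averaged 161 ± 13.4 CPM in ILT3+ cells, against 283 ± 77.1 CPM in ILT3- cells (-0.81, adjusted p = 0.132, and 0.0464 with the block). Dok1, an inhibitory docking protein, averaged 52.5 ± 10.4 CPM in ILT3+ cells, against 29.7 ± 2.18 CPM in ILT3- cells (0.82, adjusted p = 0.137, and 0.0919 with the block). Ptprc, the phosphatase CD45 that activates Lck, averaged 1565 ± 142 CPM in ILT3+ cells, against 2038 ± 156 CPM in ILT3- cells (-0.38, adjusted p = 0.394, and 0.0479 with the block). Cd6 and Cblb, named after their values were seen, were also lower with the block.

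Of 16 genes listed as adaptors, Vav and their effectors, 0 were called with group alone and 3 were lower with the block (2.62% of all tested genes). These were Trat1, Skap1 and, named after its values were seen, Themis. Trat1, a transmembrane adaptor that associates with the receptor complex, averaged 47.6 ± 9.47 CPM in ILT3+ cells, against 92.7 ± 10.1 CPM in ILT3- cells (log2 fold change -0.96, adjusted p = 0.0650, and 0.0163 with the block). Skap1, an adaptor of integrin activation, averaged 540 ± 129 CPM in ILT3+ cells, against 814 ± 198 CPM in ILT3- cells (-0.59, adjusted p = 0.355, and 0.0153 with the block). Its partner Fyb averaged 444 ± 87.8 CPM in ILT3+ cells, against 657 ± 141 CPM in ILT3- cells (-0.57, adjusted p = 0.337, and 0.0623 with the block).

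Of 22 enzymes of lipid, calcium, protein kinase C and Ras signalling, 1 was lower with group alone (Prkcq, against 0.343% of all tested genes), and 4 were lower and 1 higher with the block (2.62% and 4.18% of all tested genes). Dgka, which removes the diacylglycerol that activates protein kinase C theta, averaged 520 ± 67.1 CPM in ILT3+ cells, against 1043 ± 221 CPM in ILT3- cells (log2 fold change -1.0, adjusted p = 0.0640, and 0.0061 with the block). Itpkb, which phosphorylates inositol trisphosphate, averaged 265 ± 16.4 CPM in ILT3+ cells, against 426 ± 32.2 CPM in ILT3- cells (-0.68, adjusted p = 0.0866, and 0.0153 with the block). Plcg1 was also lower and Itpr1 higher with the block, both named after their values were seen.

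**Figure D5:**
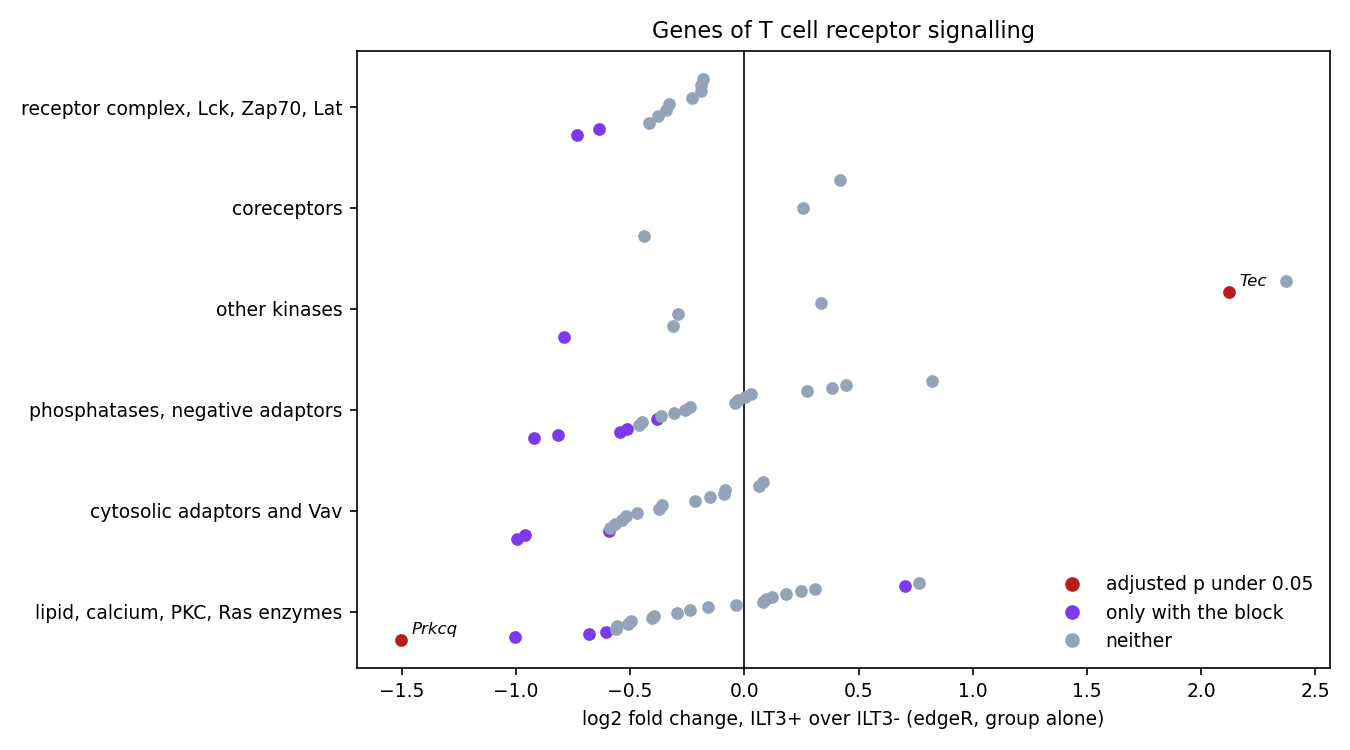
Fitted log2 fold change of ILT3+ over ILT3- (group alone) of the 10 genes (top row) and of 66 further genes of receptor signalling by role, 1 point per gene, spread vertically by rank within a row. Red marks an adjusted p under 0.05 (Tec at 2.12 and Prkcq at -1.50), purple marks genes that pass only with the sample number as a block, and grey marks the rest.

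Other receptor chains were looked up beside the alpha and beta chains. Fcer1g, the signalling chain of Fc receptors that can stand in for zeta, had 143, 153 and 140 CPM in the ILT3+ samples, against 7.21, 6.21 and 5.38 CPM in the ILT3- samples (log2 fold change 4.54, SE 0.21, adjusted p = 0.0003). Tyrobp, the adaptor DAP12 of myeloid and NK cells, had 47.8, 13.8 and 9.25 CPM in the ILT3+ samples, against 1.80, 0.471 and 0.872 CPM in the ILT3- samples (4.52, SE 0.83, adjusted p = 0.0377). The call of Tyrobp was lost without any of ILT3+ samples 1, 2 and 3 or ILT3- samples 2 and 3, left out in turn (adjusted p = 0.0599 to 0.166). Gamma chain rows (13 segments and constant genes) summed to 44.4, 5.87 and 7.18 CPM in ILT3+, against 11.5, 1.34 and 0.509 CPM in ILT3- samples. They overlapped between the groups but were higher in ILT3+ within each pair, as were 22.4% of all tested genes. Tcrg-C1 had 25.0, 1.85 and 3.75 CPM in the ILT3+ samples, against 4.20, 0.0786 and 0 CPM in the ILT3- samples. Its adjusted p was 0.530, and 0.0592 with the block, and it was called in 2 of 19 alternatives. Ptcra, the surrogate alpha chain of thymocytes, had 0 reads in all 6 libraries, and Trdc was not analysed here.

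The sort and the T cell label were checked on markers. Lilrb4, the gene for ILT3, was at 332 ± 65.8 CPM in ILT3+ cells, against 4.46 ± 1.29 CPM in ILT3- cells, its neighbour Gp49a at 17.4 ± 8.71 CPM in ILT3+ cells, against 0.555 ± 0.494 CPM in ILT3- cells (adjusted p = 0.0545, called with the block at 0.0295), and Foxp3, the lineage factor of regulatory T cells and named outside the rule for genes, at 861 ± 127 CPM in ILT3+ cells, against 862 ± 233 CPM in ILT3- cells. Of 8 further T lineage genes 0 were called with group alone (2.31% of all tested genes), 4 had an unadjusted p under 0.05 (13.8% of all tested genes), and 1 was lower with the block (2.62% of all tested genes), namely Cd28, the main costimulatory receptor (log2 fold change -0.66, adjusted p = 0.247, and 0.0230 with the block). Tcf7 (-1.04, adjusted p = 0.232) and Gata3 (0.55, adjusted p = 0.204) were not called.

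Markers of other cell types were summed in each sample. Of all tested genes, 1.96% were higher in ILT3+ cells with group alone and 4.18% with the block. The summed list of dendritic cell markers, which includes MHC class II pathway genes, ran from 1723 to 2908 CPM in ILT3+ and from 166 to 197 CPM in ILT3- samples. Of its 8 tested genes 5 were higher (6 with the block), and Cd74 and H2-Aa, both of that pathway, were the most abundant. Cd74 alone had 1724, 1230 and 1148 CPM in the ILT3+ samples, against 137, 150 and 131 CPM in the ILT3- samples. Cd209a was at 0 reads in all libraries and Itgax at 0 in the ILT3- ones. Itgax had 4.60, 0 and 0.0798 CPM in the ILT3+ samples. Zbtb46, Xcr1 and Flt3 of the same list were named after their values were seen. Zbtb46 had 11.8, 25.7 and 36.0 CPM in the ILT3+ samples, against 1.44, 9.82 and 10.5 CPM in the ILT3- samples. Its adjusted p was 0.337, and 0.0386 with the block. Xcr1 had 0, 6.84 and 11.2 CPM in the ILT3+ samples, against 0, 1.26 and 1.45 CPM in the ILT3- samples (adjusted p = 0.539). Flt3 averaged 1.87 ± 0.514 CPM in ILT3+ cells, against 1.69 ± 0.725 CPM in ILT3- cells. Summed NK and innate lymphoid markers ran from 469 to 678 CPM in ILT3+ and from 126 to 221 CPM in ILT3- samples (2 of 3 tested genes higher and 3 with the block, Il7r and Kit the most abundant, Il7r with an adjusted p of 0.133 and 0.0115 with the block). Erythroid and platelet markers ran from 42.1 to 202 CPM in ILT3+ and from 0.550 to 5.29 CPM in ILT3- samples (2 of 4 tested genes higher and 4 with the block, Hba-a2 and Hbb-bs the most abundant, Hbb-bs with an adjusted p of 0.0640 and 0.0067 with the block, Pf4 and Ppbp at 0 reads). Monocyte and macrophage markers ran from 26.8 to 677 CPM in ILT3+ and from 8.28 to 20.9 CPM in ILT3- samples (0 of 6 higher with group alone and 2 with the block, Csf1r and Adgre1 the most abundant). Csf1r had 266, 2.25 and 0.399 CPM in the ILT3+ samples, against 3.24, 0.629 and 0.218 CPM in the ILT3- samples, and was high in ILT3+ sample 1 only. Its adjusted p was 0.268, and 0.0622 with the block, while that of Adgre1 was 0.248, and 0.0271 with the block. B cell markers ran from 34.1 to 72.4 CPM in ILT3+ and from 21.2 to 36.3 CPM in ILT3- samples (0 of 5 called, Cd79b and Cd79a the most abundant), and overlapped between the groups. Their part in the lower beta chain and signalling values of ILT3+ cells was not tested. ILT3+ sample 1 held the most macrophage and erythroid reads. Without both samples numbered 1, Trbc1 was called with group alone (adjusted p = 0.0321) and Trbc2 was not (adjusted p = 0.0503). In that setting 786 of 13942 tested genes were called. It was not a test of other cells, since the Cd74 difference given above also held in samples 2 and 3.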

How the data were processed

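Total RNA of 6 sorted samples was made into full-length cDNA from 1 ng of RNA (SmartSeq V2) and Nextera XT libraries, per the labels' protocols. The authors deposited whole-number read counts per gene, exon and intron, total and unique. The build is GRCm38 per the submitters' processing notes, while the sources used here do not give the aligner, counter, annotation or use of strand. The deposited exon lengths were used only for levels per kilobase. Depth was 9334370 to 13648274 reads per library, and the reads carry no molecular identifiers.

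Total gene reads were tested with edgeR 4.0.16 in R 4.3.3: TMM, default filter (minimum count 10, total 15), robust quasi-likelihood fit on group alone, Benjamini-Hochberg adjustment at 0.05 over all tested genes. DESeq2 1.42.0, exon and unique reads, other scalings and left-out samples were alternatives. CPM uses TMM-scaled library sizes, and the SE is the log2 fold change over the root of F. Profile distances use log2 CPM with a prior count of 2.

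Same-number samples of both groups deviated together (r of 0.40, 0.26 and 0.27 after centring each group, all over the bound of 0.1), so numbers were taken as pairs. The labels do not state this, and crossed numbers 2 and 3 (0.12 and 0.16) also passed. Every pair of libraries was further apart than counting noise allows (chi-square over df of 18.3 to 128).

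The 10 genes and the lists were chosen with earlier results of these data known. Named are all 10, and of each signalling, receptor, T lineage and sort list the called genes or the 3 of smallest p, of other cell type lists the 2 most abundant and any marker at 0, and the 3 genes of closest profile to Cd3e, Trac and Lck. Names outside this rule are marked, and 1 gene that it names is not reported here.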

Additional observations from a re-analysis of the deposited data

How the results depend on the processing

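Of 190 values of the 10 genes under 19 alternatives each, 175 kept sign and call, 10 passed the threshold that the main value missed (6 of Trbc1, 4 of Trbc2) and 5 changed sign. Leaving out 1 sample gave -0.45 to 0.015 for Trac (above 0 without ILT3+ sample 2, 0.010, and ILT3- sample 3) and -0.45 to 0.14 for Zap70 (above 0 without ILT3- sample 3), and with the block and without both samples numbered 3 Trac was at 0.0017 and Zap70 at 0.15. Leaving out 1 sample, Cd3d ran from -0.69 to -0.20, Lat from -0.62 to -0.16, Cd3g from -0.52 to -0.06, Cd3e from -0.34 to -0.08, Lck from -0.52 to -0.25 and Cd247 from -0.45 to -0.27. Over all alternatives Trbc1 ran from -0.85 to -0.64 (adjusted p = 0.00215 to 0.363) and Trbc2 from -0.83 to -0.48 (adjusted p = 0.00291 to 0.597). The count of called genes, 316, was 951 with DESeq2, 932 with the replicate block, 786 without both samples numbered 1, 700 on exon reads with the block, 825 on unique reads with the block, and 1701, 129 and 96 with the block and without both samples numbered 1, 2 or 3, and leaving out 1 sample at a time gave 31 (ILT3- sample 3) to 322, with 53 and 57 without ILT3+ samples 2 and 3 and 67 without ILT3- sample 2. The block on exon or unique reads, the block without a pair, and the ratios and segment sums were added after seeing the data. The count of called signalling genes, 2, was 9 with DESeq2, 1 on exon reads, 15 with the replicate block, 8 without both samples numbered 1, 10 and 12 on exon and unique reads with the block, 21 and 1 with the block and without both samples numbered 1 or 3, and 0 (ILT3- sample 3) to 2 leaving out 1 sample. The block changed no call of a named gene beyond those given above in the results. Cd8a ran from -0.24 (without ILT3- sample 2) to 1.17 leaving out 1 sample and was -0.14 with the block and without both samples numbered 2. The intron share difference (percentage points, ILT3+ minus ILT3-) changed sign in 6 of the 10 genes, without both samples numbered 1 for Trac (0.291), Trbc2 (0.0859), Lck (0.657) and Zap70 (0.437), and leaving out 1 sample gave -0.563 to 0.230 for Trac, -1.46 to 0.411 for Trbc2, -3.04 to 0.547 for Cd3e, -2.05 to 0.693 for Cd3g, -2.04 to 1.92 for Lck and -0.522 to 0.574 for Zap70. The Trbc1 share kept its sign throughout.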
